A study of Mus musculus with 30 samples.

Results

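A set of 43 genes that cells switch on in response to type I interferon was followed in sorted mouse T cells with and without a conditional knockout of Prmt5, the gene of an enzyme that dimethylates arginines of histones and splicing proteins. The genes were taken from a fixed list of symbols, of which 43 of 43 were present in all 3 deposited count tables, among 20730 symbols common to the tables. A gene was counted as expressed in a population at a mean of 1 CPM (read counts scaled to a common library size) or more over its 6 libraries. By that rule 43 were expressed in each spleen population, 42 in CD8 SP, 41 in CD4 SP and 38 in DP cells of the thymus, and 37 in all 5 populations. The genes just inside the limit were Ifit3 at 1.14, Oas1a at 1.47 and Ifit1 at 1.49 CPM in thymus DP. Those just outside it were Oasl2 at 0.817 and Mx1 at 0.639 CPM in thymus DP, and Igtp at 0.693 CPM in thymus CD8 SP.

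Knockout mice (CKO) carried CD4-Cre together with a floxed PRMT5 allele on both chromosomes, and the comparison mice (WT) are labelled wild type, all C57BL/6. CD4-Cre is active from the double-positive stage of the thymus onward. There was no Cre-only group, so what Cre itself does and what the loss of Prmt5 does cannot be told apart, and neither age nor sex is given. Cells were sorted by flow cytometry from the thymus (double-positive cells, DP, and CD4 or CD8 single-positive cells, SP) and from the spleen (CD4 and CD8 T cells). Each genotype had 3 mice per population, giving 30 libraries. Thymus DP and thymus CD4 SP share sample numbers, read here as mouse numbers (WT 15, 18, 24 and CKO 14, 17, 23), as do both spleen populations (WT 67, 70, 71 and CKO 65, 68, 72), while the thymus CD8 SP libraries are numbered 1, 2 and 3 in each genotype.

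Type I interferons bind the receptor IFNAR, which activates the kinases JAK1 and TYK2. The signal runs through ISGF3, a complex that contains STAT2 and IRF9. ISGF3 binds a DNA motif called the interferon-stimulated response element (ISRE) in the promoters of antiviral genes, whereas interferon gamma acts mainly at a different motif, the GAS element. In resting T cells many of these genes are expressed at a tonic level, and in the thymus they are known to come on late in the maturation of single-positive cells.

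The promoters of these genes were searched for the ISRE and GAS motifs. RefSeq promoters (GRCm38.p6, from 250 bases before to 50 after each gene start) were at hand for 34 of the 43 genes. Usp18, Oas2 and Mx1, called in the spleen below, were among those without one. The ISRE core, searched as a pair of GAAA tetramers with any 2 bases between them on either strand, was present in 19 of the 34 (55.9%), against 3.99% of all 27025 genes with a promoter in that table. The GAS motif TTCNNNGAA, read the same way, was present in 7 of the 34 (20.6%) against 9.55% of all genes. A promoter can hold both motifs, as those of Bst2, Eif2ak2, Igtp and Oas1a did. Whether the motifs overlap there was not examined. A match describes the letters in the window and is no evidence of binding. Promoters are printed here for 6 genes that passed the test in at least 1 population and hold the ISRE core, and for Irf7, which passed and does not hold it. Capitals mark the ISRE core, which lies 24 to 155 bases before the start. In Irgm1 and Gbp3 a pair of overlapping cores makes 1 longer run.

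Irgm1 (chr11:48871371-48871670, minus strand): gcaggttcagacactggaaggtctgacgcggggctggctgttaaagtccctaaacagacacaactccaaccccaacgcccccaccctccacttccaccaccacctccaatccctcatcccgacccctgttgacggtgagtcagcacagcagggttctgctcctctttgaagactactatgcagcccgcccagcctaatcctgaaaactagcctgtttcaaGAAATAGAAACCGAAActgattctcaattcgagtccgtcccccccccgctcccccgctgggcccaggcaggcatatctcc

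Slfn5 (chr11:82951852-82952151, plus strand): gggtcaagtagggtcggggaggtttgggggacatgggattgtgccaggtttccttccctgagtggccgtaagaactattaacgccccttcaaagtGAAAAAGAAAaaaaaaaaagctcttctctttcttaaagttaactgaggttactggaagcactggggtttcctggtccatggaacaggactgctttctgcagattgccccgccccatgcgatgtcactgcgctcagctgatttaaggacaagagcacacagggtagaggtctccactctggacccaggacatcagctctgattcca

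Slfn8 (chr11:83020761-83021060, minus strand): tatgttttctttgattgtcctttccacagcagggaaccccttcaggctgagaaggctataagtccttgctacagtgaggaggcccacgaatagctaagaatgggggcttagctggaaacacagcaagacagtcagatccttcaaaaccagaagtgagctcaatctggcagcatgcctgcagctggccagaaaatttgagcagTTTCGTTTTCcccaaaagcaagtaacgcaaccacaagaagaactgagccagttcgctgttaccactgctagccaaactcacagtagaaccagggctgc

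Gbp3 (chr3:142559794-142560093, plus strand): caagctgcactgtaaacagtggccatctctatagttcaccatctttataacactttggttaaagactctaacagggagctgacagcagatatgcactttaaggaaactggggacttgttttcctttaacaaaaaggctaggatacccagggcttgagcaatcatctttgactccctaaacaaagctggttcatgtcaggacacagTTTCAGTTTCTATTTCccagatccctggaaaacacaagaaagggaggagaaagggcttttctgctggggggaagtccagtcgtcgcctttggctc

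Oas3 (chr5:120777610-120777909, minus strand): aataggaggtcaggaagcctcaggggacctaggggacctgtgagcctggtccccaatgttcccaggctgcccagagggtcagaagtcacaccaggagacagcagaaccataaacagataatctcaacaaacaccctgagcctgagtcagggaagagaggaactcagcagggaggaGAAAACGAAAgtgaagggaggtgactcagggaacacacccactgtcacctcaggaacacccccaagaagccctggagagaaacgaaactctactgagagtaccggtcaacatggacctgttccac

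Ifi203 (chr1:173942443-173942742, minus strand): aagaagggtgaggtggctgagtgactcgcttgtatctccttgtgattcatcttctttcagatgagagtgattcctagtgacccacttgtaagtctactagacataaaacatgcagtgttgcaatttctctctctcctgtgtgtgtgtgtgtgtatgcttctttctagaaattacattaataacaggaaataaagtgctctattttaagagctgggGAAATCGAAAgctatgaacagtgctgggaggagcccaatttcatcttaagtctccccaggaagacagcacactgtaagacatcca

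Irf7 (chr7:141266375-141266674, minus strand, no core): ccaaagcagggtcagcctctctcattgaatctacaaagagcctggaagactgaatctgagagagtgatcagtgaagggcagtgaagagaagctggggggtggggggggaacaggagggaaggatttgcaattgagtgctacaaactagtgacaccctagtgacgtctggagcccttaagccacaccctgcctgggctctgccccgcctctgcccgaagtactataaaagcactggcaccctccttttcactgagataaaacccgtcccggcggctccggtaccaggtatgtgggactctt

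In Slfn8 and Gbp3 the core was read on the opposite strand, so it appears there as a pair of TTTC tetramers. Both spleen groups of genes described below, those higher and those lower in CKO, include promoters with the core: Slfn5 and Oas1a rose, and Irgm1, Slfn8 and Gbp3 fell.

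Several properties of the libraries touch the results. Prmt5 itself was lower in each CKO library than in any WT library of the same population. By edgeR its log2 change was smallest in thymus CD8 SP, at -0.31 (adjusted p = 0.0450), a call lost in most other settings. In thymus CD4 SP it was -0.99 and did not pass (adjusted p = 0.958). Its mean went from 144 ± 7.96 to 116 ± 1.09 CPM in thymus CD8 SP, from 64.3 ± 2.98 to 35.2 ± 6.24 in spleen CD8, from 44.2 ± 0.530 to 22.6 ± 3.02 in spleen CD4, from 65.2 ± 4.94 to 30.7 ± 0.381 in thymus DP and from 62.5 ± 5.69 to 31.3 ± 10.5 in thymus CD4 SP (mean ± SD, n = 3). In thymus CD4 SP, 5 of the 6 libraries went against their label. Cd8a, which CD4 SP cells should lack, was at 1086 to 1532 CPM in the WT libraries, against 2608 to 2727 in WT DP, and at 2424 and 947 CPM in CKO 14 and CKO 23. In CKO 17 it was at 43.3 CPM. By the male-specific transcript Ddx3y, WT 1 to 3 and CKO 1 of thymus CD8 SP were male and CKO 2 and CKO 3 female. All spleen mice were female, and in the other thymus populations the males were WT 18 and CKO 17. Igtp was at 70.1 CPM or more in every thymus DP and CD4 SP library but at 3.89 CPM or less in the other tables, while Ifi47 was at 0 and Slfn8 at 0.141 CPM or less in thymus DP and CD4 SP and at 18.4 CPM or more elsewhere. The table of thymus DP and CD4 SP lists 21983 genes and each of the others 46095, and whether the annotation differed is not given. Levels are therefore compared within a table, except for these 3 genes and the untested differences flagged near the end.

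**Figure D1:**
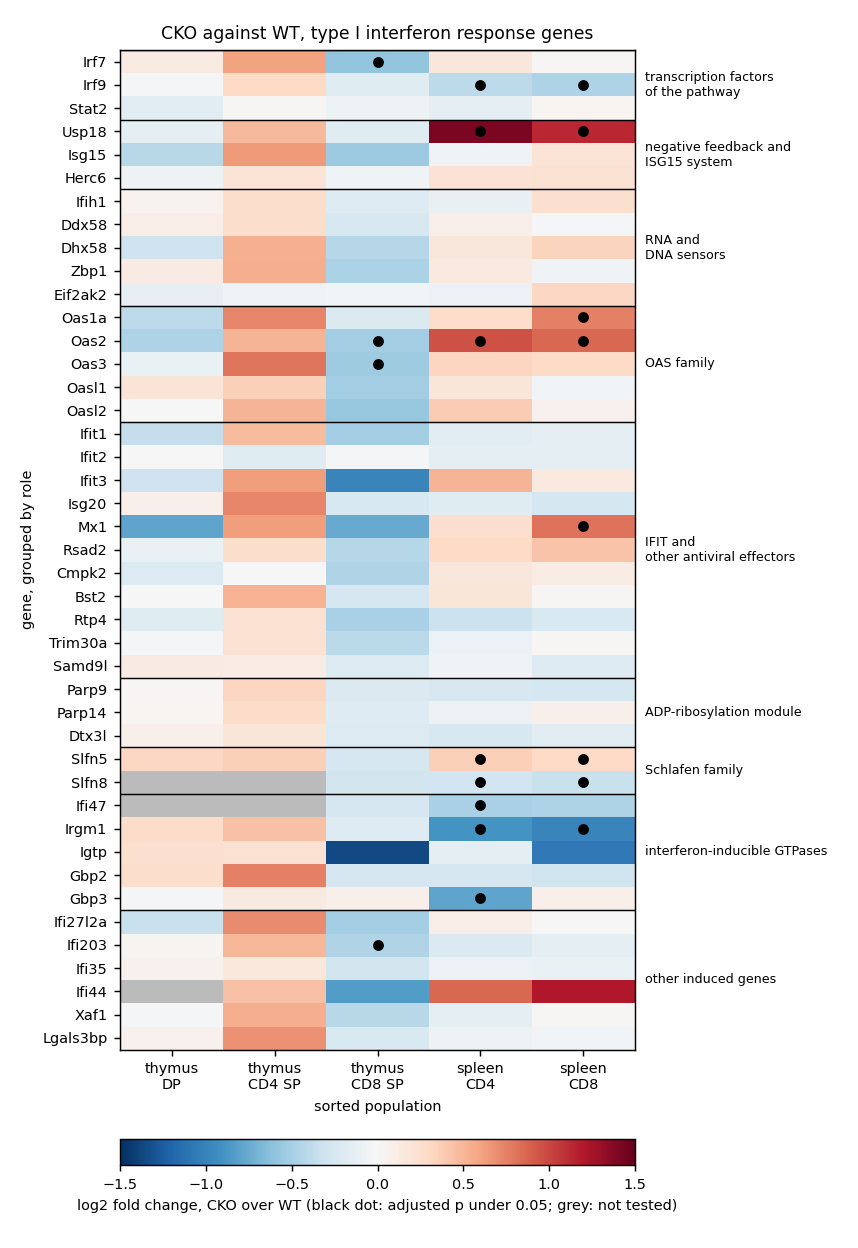
Log2 fold change of CKO over WT for each gene (rows, grouped by role) in each sorted population (columns), with red for higher and blue for lower in CKO. Black dots mark an adjusted p under 0.05: 4 in thymus CD8 SP, 8 in spleen CD4, 8 in spleen CD8, and none in thymus DP or CD4 SP. Grey cells were not tested.

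In spleen T cells the response genes changed in both directions. In spleen CD4 cells 3 of 43 rose in CKO and 5 fell, against 8.53% of all 14292 genes tested called higher and 5.63% called lower. At an unadjusted p under 0.05 there were 17 of 43 (28.5% of all genes), and the CKO libraries lay all below WT for 7 (15.6% of all genes) and all above for 4 (17.3%). In spleen CD8 cells 5 of 43 rose and 3 fell, against 9.83% and 6.22% of 13917 genes. Here 15 of 43 had an unadjusted p under 0.05 (30.2% of all genes), 6 had all CKO libraries below WT (16.8%) and 7 had them all above (18.4%). The shares among the 43 genes, 8 of 43 in either population, were close to the 14.2% and 16.1% of all genes called in either direction. The median log2 change was -0.07 in spleen CD4 and 0.01 in spleen CD8, against -0.01 for all genes in both. Of the 8 calls, 6 were common to the 2 populations (75% of each list), always in the same direction, namely Irgm1, Irf9 and Slfn8 (lower) and Usp18, Oas2 and Slfn5 (higher). The CD4 and CD8 libraries share their mouse numbers, so the 2 lists are not independent. The overlap of calls was not counted over all genes. Calls here and in the rest of the text are those of edgeR with its low-count filter. DESeq2 also called Ifi44 and Dtx3l in CD4, and Ifi44, Ifi47 and Igtp in CD8. With no filter 7 rose and 10 fell in CD4 and 9 rose and 7 fell in CD8, among them Gbp2, Oas3 and Parp9 in both. Over all genes in CD4, no filter gave 1515 higher and 1203 lower of 23906, against 1219 and 805 of 14292 with the filter.

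Among the transcription factors, Irf9, the DNA-binding subunit of ISGF3, was lower in CKO in both spleen populations. Its level in spleen CD4 cells was 156, 157 and 152 CPM in WT 67, 70 and 71, and 116, 104 and 134 CPM in CKO 65, 68 and 72. In spleen CD8 cells it was 132, 151 and 135 CPM in WT and 96.8, 93.7 and 113 CPM in CKO. The highest CKO library was under the lowest WT library in both. The log2 change was -0.40 ± 0.09 (SE, adjusted p = 0.00963) in CD4 and -0.46 ± 0.09 (adjusted p = 0.00592) in CD8. In thymus DP, where Prmt5 was also reduced, Irf9 was 54.7 ± 4.98 in WT and 54.2 ± 8.08 CPM in CKO. Irf9 lies on chromosome 14 (GRCm38, 55603571 to 55610030), 1.09 Mb from Prmt5, the floxed gene. Whether that position has a part in the difference was not tested. Stat2, the other subunit particular to ISGF3, was 113 ± 5.27 against 103 ± 8.27 CPM in spleen CD4 and 89.0 ± 8.57 against 91.0 ± 9.74 in spleen CD8, and Irf7, the factor that amplifies the response, was 83.9 ± 5.30 against 94.2 ± 24.6 and 90.3 ± 8.38 against 91.2 ± 21.5 CPM. Neither passed.

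The largest rise among the called genes of both spleen populations was that of Usp18, a protease that removes ISG15 from proteins and blocks signalling at IFNAR2. It read 23.01, 26.7 and 23.7 CPM in WT and 44.4, 56.6 and 95.3 CPM in CKO in spleen CD4 cells. In spleen CD8 cells it read 27.2, 23.3 and 20.4 CPM in WT and 41.9, 42.1 and 71.8 CPM in CKO. The groups did not overlap in either, and CKO 72 was the highest library in both. The change was 2.67-fold in CD4 (log2 1.42 ± 0.22, adjusted p = 0.00126) and 2.20-fold in CD8 (log2 1.14 ± 0.20, adjusted p = 0.00318). Isg15, the ubiquitin-like modifier that USP18 removes, did not pass, at 15.6 ± 2.99 against 15.03 ± 3.85 CPM in CD4 and 12.04 ± 0.733 against 13.8 ± 5.87 CPM in CD8. Herc6, the main ISG15 ligase of mice, was 79.5 ± 5.17 against 92.3 ± 9.41 CPM and 81.5 ± 3.35 against 95.9 ± 11.8 CPM and did not pass either.

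Of the oligoadenylate synthetases and their relatives, sensors of double-stranded RNA that feed RNase L, Oas2 rose in both spleen populations. Oas2 was at 70.1, 69.97 and 57.0 CPM in WT and at 79.6, 123 and 182 CPM in CKO 65, 68 and 72 in CD4 cells. In CD8 cells it was at 37.4, 44.3 and 41.4 CPM in WT and at 47.9, 65.2 and 111 CPM in CKO. The CKO libraries were all above the WT libraries, but they spread widely, and CKO 72 was again the highest. The log2 change was 0.96 ± 0.22 (adjusted p = 0.0123) in CD4 and 0.86 ± 0.24 (adjusted p = 0.0306) in CD8. The CD4 call was lost without WT 71 and the CD8 call without WT 67, WT 70, WT 71 or CKO 72, and by DESeq2. Oas1a rose in CD8 cells, from 14.5, 15.1 and 13.8 CPM in WT to 23.4, 19.7 and 29.8 CPM in CKO (log2 0.75 ± 0.15, adjusted p = 0.00606), with no overlap. In CD4 cells Oas1a was 19.99 ± 0.899 against 23.9 ± 5.26 CPM and did not pass. Oas3, Oasl1 and Oasl2 did not pass in either spleen population. All 5 OAS genes lie on chromosome 5, Oas2 and Oas3 3.25 kb apart, and reads shared between such related genes could be split by the counting.

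Among the antiviral effectors, Mx1 rose in spleen CD8 cells, from 15.6, 25.9 and 19.1 CPM in WT to 29.7, 27.1 and 50.02 CPM in CKO (log2 0.82 ± 0.23, adjusted p = 0.0373). The lowest CKO library, 27.1, was close above the highest WT library, 25.9, and the call was lost without WT 67, WT 71 or CKO 72 and by DESeq2. None of the other 10 effectors passed in either population. Ifit1, which binds viral RNA caps, was 34.5 ± 4.03 in WT and 30.6 ± 11.5 CPM in CKO in CD4 cells, and its log2 change in CD8 cells was -0.15 ± 0.24. Bst2, which tethers budding virus, was 42.0 ± 2.68 against 47.6 ± 9.44 CPM. None of the 5 RNA and DNA sensors (Ifih1, Ddx58, Dhx58, Zbp1, Eif2ak2) and none of the 3 genes of the ADP-ribosylation module (Parp9, Parp14, Dtx3l) passed in the spleen by edgeR. Dtx3l was called in CD4 by DESeq2 and with no filter, Eif2ak2 in CD8 with no filter, and Parp9 in both with no filter and in CD4 without CKO 72.

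Of the 5 interferon-inducible GTPases in the set, a family that guards against intracellular pathogens, 3 fell in CD4 cells (Irgm1, Gbp3 and Ifi47), 1 fell in CD8 cells (Irgm1) and none rose. Over all genes 5.63% fell and 8.53% rose in CD4, and 6.22% fell and 9.83% rose in CD8. Of the GTPase genes outside the set named below, Gbp4 and Gbp9 rose in both populations. Tgtp1 and Tgtp2 fell in both, and Gbp5 fell in CD4 cells. Irgm1, which regulates autophagy and the other immunity-related GTPases, was at 78.2, 76.5 and 71.5 CPM in WT and at 41.7, 32.3 and 46.9 CPM in CKO in CD4 cells. In CD8 cells it was at 82.6, 85.6 and 75.1 CPM in WT and at 40.5, 33.9 and 48.5 CPM in CKO. The groups stood far apart, at 0.535-fold in CD4 (log2 -0.90 ± 0.11, adjusted p = 0.000356) and 0.505-fold in CD8 (log2 -0.99 ± 0.12, adjusted p = 0.000443). This was the smallest p among the 43 genes in each spleen population. Ifi47 fell in CD4 cells, from 47.3, 47.0 and 45.2 CPM to 36.3, 23.6 and 39.7 CPM (log2 -0.49 ± 0.15, adjusted p = 0.0482). In CD8 cells Ifi47 was 53.4 ± 3.36 against 38.7 ± 9.26 CPM, also with no overlap, at an adjusted p of 0.0598. The CD4 call for Ifi47 was lost without WT 67, WT 70, WT 71 or CKO 68 and in the joint fit of all 12 spleen libraries. All 5 GTPases had negative estimates in CD4 (median -0.49) and 4 of 5 in CD8 (median -0.46). Gbp2, at 77.3 ± 7.77 against 64.9 ± 9.48 CPM in CD4 and 98.6 ± 14.2 against 80.5 ± 13.0 in CD8, and Igtp, which had 3.89 CPM or less in every spleen library, did not pass by edgeR. Igtp was called in CD8 by DESeq2, with no filter, in the joint fit and without CKO 72, and Gbp2 in both with no filter and in CD4 without CKO 72.

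In the main test, which left out the pairing by mouse, only Gbp3, a guanylate-binding protein, was called for a difference between the spleen populations. In CD4 cells it was at 36.5, 43.4 and 48.1 CPM in WT and at 21.1, 21.7 and 31.2 CPM in CKO, with no overlap (log2 -0.79 ± 0.15, adjusted p = 0.00453). In CD8 cells it was at 42.1, 40.6 and 39.9 CPM in WT and at 37.0, 40.4 and 52.0 CPM in CKO, which overlapped (log2 0.08 ± 0.12). The CD8 change minus the CD4 change, tested over the 12 spleen libraries, was 0.87 ± 0.21 (adjusted p = 0.0418). It was the 1 call of 43 in that test, against 2.56% of all 14958 genes tested (1.81% higher and 0.749% lower), with 3 of 43 at an unadjusted p under 0.05 (12.4% of all genes), and it was lost when 8 of the 12 libraries were left out in turn (WT 70, WT 71, CKO 65 or CKO 68 of CD4, or WT 67, WT 70, WT 71 or CKO 72 of CD8). Next by p, and not passing, were Eif2ak2 (0.39 ± 0.16), Oas1a (0.49 ± 0.22) and Igtp (-0.94 ± 0.45). With the mouse as a replicate block, which uses the pairing of CD4 and CD8 cells, 4 genes were higher: Gbp3 (0.87 ± 0.12, adjusted p = 0.000163), Eif2ak2 (0.40 ± 0.08, adjusted p = 0.00637), Oas1a (0.50 ± 0.13, adjusted p = 0.0222) and Mx1. The share of all genes called in that fit is not reported here.

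The Schlafen genes, nuclear and cytoplasmic regulators of T cell quiescence and RNA, moved in opposite directions although Slfn5 and Slfn8 lie 37.3 kb apart on chromosome 11. Slfn5 was at 229, 246 and 226 CPM in WT and 293, 267 and 337 CPM in CKO in CD4 cells, and at 89.6, 97.4 and 98.5 against 120, 103 and 129 CPM in CD8 cells. Slfn8 was at 199, 190 and 171 CPM in WT and 165, 138 and 158 CPM in CKO in CD4 cells, and at 179, 184 and 164 against 149, 116 and 153 CPM in CD8 cells. Neither gene's groups overlapped in either population. The log2 change of Slfn5 was 0.36 ± 0.08 (adjusted p = 0.0152) in CD4 and 0.30 ± 0.09 (adjusted p = 0.0449) in CD8. That of Slfn8 was -0.28 ± 0.08 (adjusted p = 0.0378) and -0.34 ± 0.10 (adjusted p = 0.0473). These were the smallest called changes. The Slfn5 call was lost without WT 67, WT 71 or CKO 72 in CD4 and without any WT library, CKO 65 or CKO 72 in CD8. The Slfn8 call was lost without WT 67, WT 70, CKO 68 or CKO 72 and in the joint fit of 12 libraries in CD4, and without any WT library or CKO 68 in CD8.

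**Figure D2:**
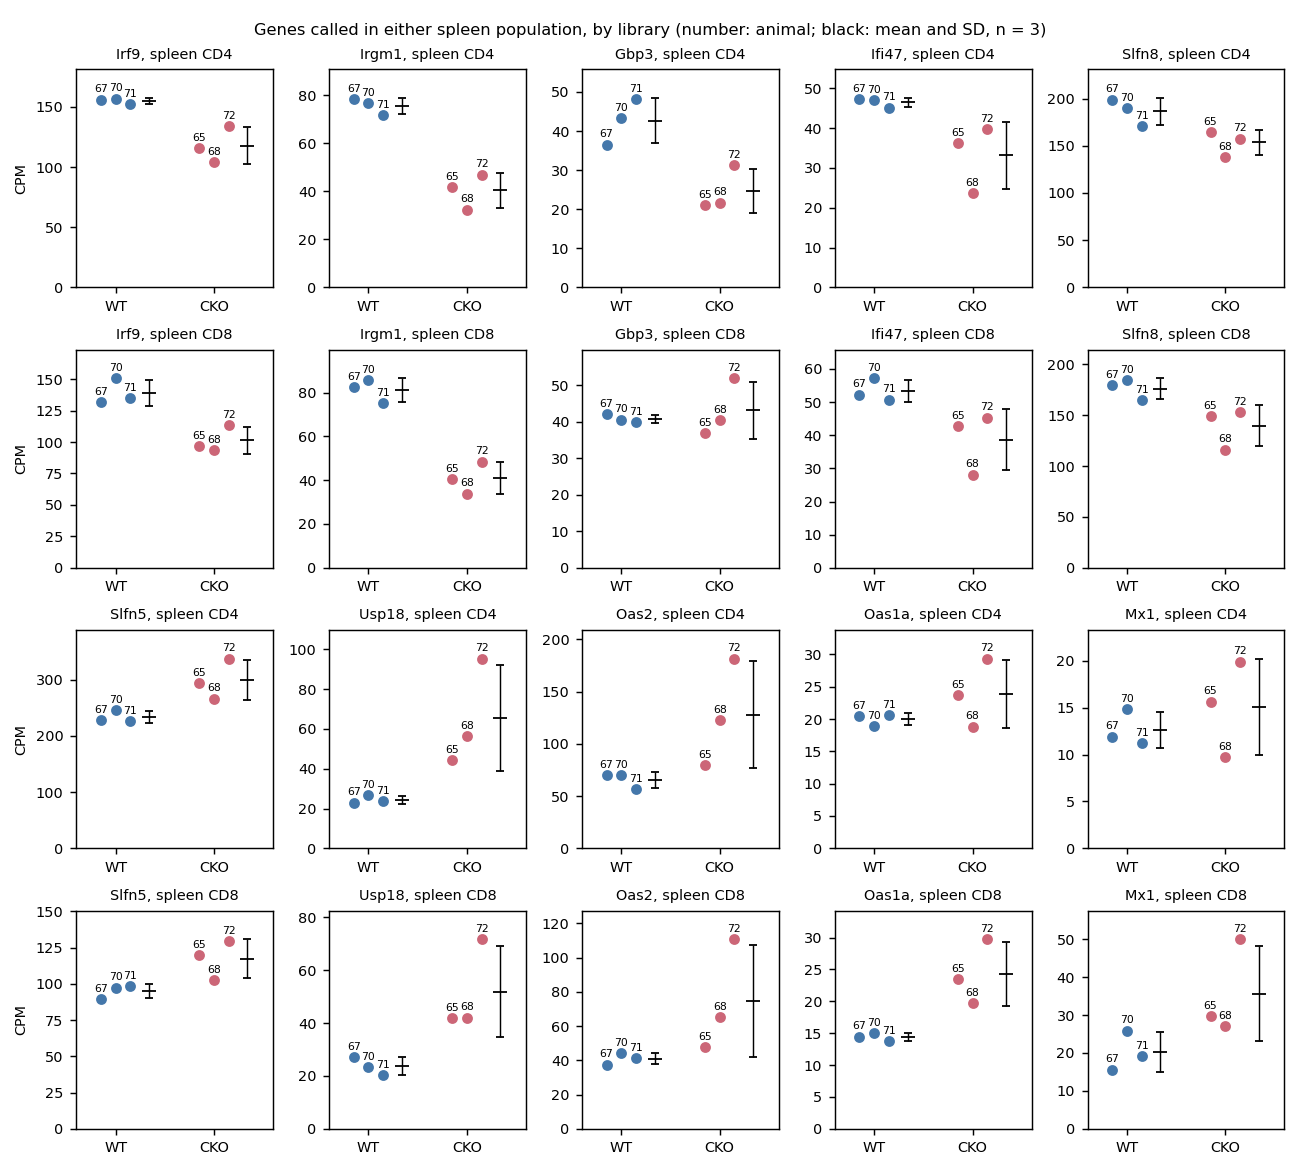
CPM of the 10 genes called in either spleen population, in each library (number beside the point: mouse), with the mean and SD (black, n = 3) of each genotype. Rows 1 and 2 hold the genes with lower estimates in spleen CD4, and rows 3 and 4 those with higher estimates. CKO 72 is the highest CKO library in every panel except Slfn8 in spleen CD4.

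One mouse weighed on these results. In spleen CD4 cells CKO 72 was the highest of the 6 libraries for 28 of 43 genes and in spleen CD8 cells for 29 of 43. Among the 43 genes, 30 in CD4 and 34 in CD8 were above their WT mean in CKO 72. In CKO 65 the numbers were 14 and 12, and in CKO 68 they were 13 and 13. Such counts for single libraries were not made over all genes. Without CKO 72 the median log2 change moved from -0.07 to -0.16 in CD4, with 30 of 43 estimates negative, and from 0.01 to -0.14 in CD8, with 31 negative. Irgm1, Irf9 and Usp18 were called in both populations whichever library was left out. Without CKO 72, 8 genes were lower in CD4 and 5 in CD8, and 2 were higher in each. The calls over all genes without CKO 72 are not reported here, so these counts cannot be set against them. Markers of other cell types also moved with genotype in the spleen. The summed level of 17 myeloid and dendritic markers was 90.8 to 134 CPM in WT and 158 to 340 in CKO in CD4 cells, and 36.5 to 58.5 against 107 to 164 CPM in CD8 cells. CKO 72 was the highest in both, and 11 of 13 markers tested rose in CD4 and 6 of 12 in CD8, against 8.53% and 9.83% of all genes. Erythroid and platelet markers summed to 6.95 to 9.59 CPM in WT and 22.1 to 25.7 in CKO in CD4 cells, and to 7.70 to 9.90 against 17.6 to 21.4 CPM in CD8 cells. In CD8 cells 16 of 19 effector T cell markers rose (9.83% of all genes), with sums of 1700 to 1961 CPM in WT and 2774 to 3788 in CKO. In bulk samples a change in the share of a cell type and a change in RNA per cell cannot be told apart, and the part of these markers in the results was not tested.

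**Figure D3:**
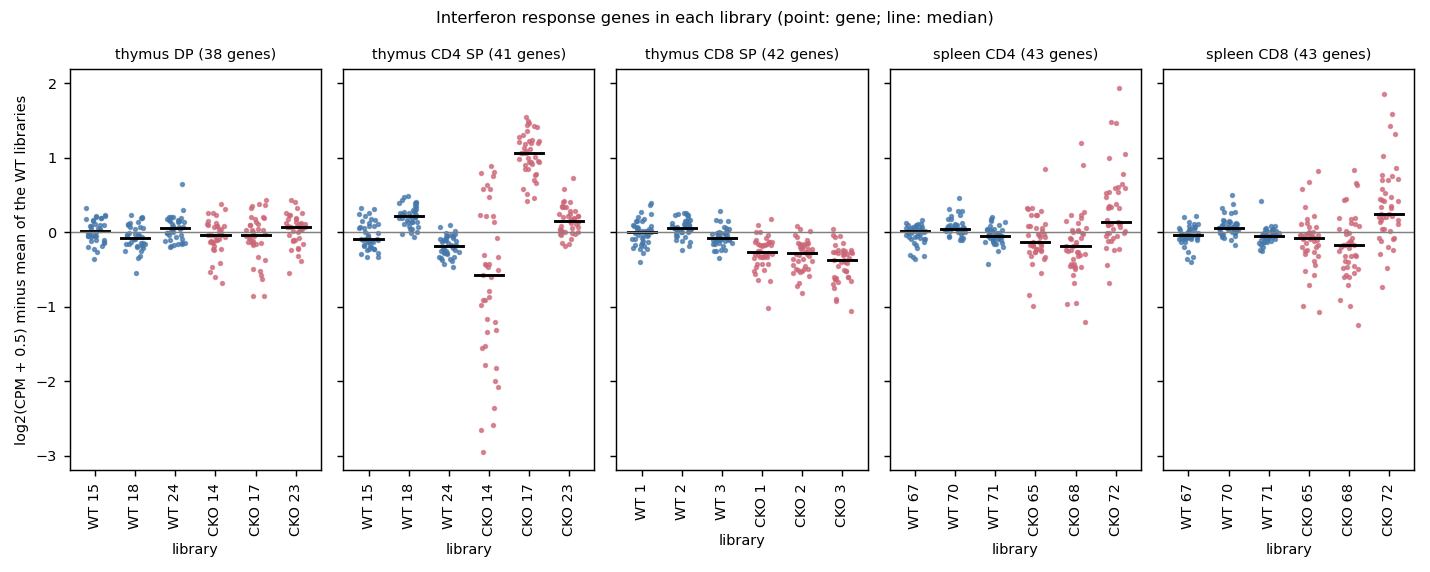
Difference of each gene from the mean of the WT libraries of its population, on the log2(CPM + 0.5) scale, in each library (points, genes; black line, median of the library). CKO 72 stands highest in both spleen populations (medians 0.13 and 0.25), CKO 14 lowest (-0.58) and CKO 17 highest (1.07) in thymus CD4 SP, and the medians of all 3 CKO libraries lie below those of WT in thymus CD8 SP (-0.27, -0.28 and -0.37).

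Other genes of the pathway also changed in the spleen, in both directions. Irf1, a regulatory factor that interferons induce, fell from 440 ± 49.1 to 295 ± 29.7 CPM in spleen CD4 and from 525 ± 58.5 to 370 ± 39.1 CPM in spleen CD8 (adjusted p = 0.00183 and 0.00561). The type I receptor subunit Ifnar1 was 278 ± 5.62 against 283 ± 8.07 CPM in CD4 and 239 ± 11.7 against 238 ± 13.1 in CD8, and Ifnar2 was 70.8 ± 5.26 against 59.2 ± 7.02 and 77.9 ± 1.28 against 76.8 ± 7.35 CPM. Neither subunit passed. Of 21 interferon ligands, Ifng alone was at a testable level. It fell in CD4 cells, from 24.4, 23.2 and 22.3 to 18.004, 9.71 and 11.1 CPM (log2 -0.85 ± 0.19, adjusted p = 0.0111). In CD8 cells it rose, from 17.997, 18.2 and 12.9 to 35.6, 38.2 and 49.9 CPM (log2 1.33 ± 0.16, adjusted p = 0.000433). The changes differed by 2.17 ± 0.28 (adjusted p = 0.000644). Among 17 receptor and signalling genes outside the set, 2 rose and 4 fell of 16 tested in CD4, and 2 rose and 3 fell of 16 in CD8. Over all genes 8.53% rose and 5.63% fell in CD4, and 9.83% rose and 6.22% fell in CD8. Among 116 further interferon-stimulated genes, 16 rose and 9 fell of 106 tested in CD4, and 6 rose and 11 fell of 104 in CD8, to be read against the same shares. Gbp9 and Gbp4 rose in both (log2 0.87 and 0.71 in CD4, 0.64 and 0.58 in CD8), whereas the near-identical GTPase genes Tgtp1 and Tgtp2 fell in both (-0.76 and -0.70 in CD4, -1.05 and -0.99 in CD8). Ifitm1, a membrane protein that blocks viral entry, rose in CD8 from 0.149, 0.154 and 0.229 CPM to 2.88, 2.63 and 2.10 CPM, a low level in every library. In CD4 cells Ms4a4c rose (log2 1.14 ± 0.12), and Gbp5 and Cd274, the ligand of PD-1, fell (-0.78 ± 0.11 and -0.62 ± 0.08). Of the signalling genes, the phosphatase genes Ptpn11 and Ptpn2 and the kinase gene Jak2 fell in CD4 cells (-0.68, -0.30 and -0.25), and Ptpn6 and Ifngr1, a subunit of the interferon gamma receptor, rose (0.44 and 0.30). In CD8 cells Ifngr2, the other subunit, and Pias1, an inhibitor of cytokine signalling, fell (-1.05 and -0.37), and Ptpn6 and Tyk2 rose (0.34 and 0.23). Of the other regulatory factors Irf4 fell in CD4 cells (-0.67 ± 0.16). Of 28 further genes of nucleic acid sensing, Ikbke, a kinase that activates IRF3, rose in both (0.61 and 0.31), and in CD8 cells Unc93b1, the chaperone of endosomal Toll-like receptors, rose and Aim2, a DNA sensor, fell (0.59 and -0.42).

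In thymus CD8 SP cells the estimates leaned one way, toward small reductions in CKO. Of 43 genes tested, 42 had negative estimates, with a median log2 change of -0.28 against -0.00 for all genes. Of these, 4 fell (Oas3, Irf7, Ifi203 and Oas2) and none rose, against 0.114% of all 14911 genes called (0.0335% higher and 0.0805% lower). At an unadjusted p under 0.05 there were 32 of 43, against 10.4% of all genes. In 30 of the 42 expressed genes every CKO library lay below every WT library, against 7.68% of all genes tested, and in none did every CKO library lie above (7.74% of all genes).

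Irf7 was at 48.4, 57.6 and 54.9 CPM in WT and at 37.2, 38.0 and 31.7 CPM in CKO, 0.665-fold (log2 -0.59 ± 0.09, adjusted p = 0.0315). Oas3 was at 51.7, 52.2 and 51.4 CPM in WT and at 34.9, 39.5 and 33.3 CPM in CKO (log2 -0.53 ± 0.07, adjusted p = 0.0292). Oas2 went from 36.1, 41.4 and 38.4 to 27.9, 28.4 and 24.1 CPM (log2 -0.53 ± 0.08, adjusted p = 0.0450). Ifi203, one of the DNA-binding HIN-200 proteins, went from 82.0, 94.6 and 86.5 to 69.5, 61.0 and 61.4 CPM (log2 -0.45 ± 0.07, adjusted p = 0.0422). In none of the 4 did the groups overlap. Ifit3, which pairs with IFIT1 on RNA, had a larger difference, 9.70, 15.4 and 14.5 CPM in WT against 6.18, 7.13 and 6.61 CPM in CKO, and an adjusted p of 0.0625. Ifi27l2a and Mx1 were likewise apart without passing, at 31.6 ± 3.07 against 22.3 ± 0.996 CPM (adjusted p = 0.0616) and 10.5 ± 1.49 against 6.21 ± 0.725 CPM (adjusted p = 0.0894). The estimates were negative in all 5 OAS genes (median -0.53), all 11 effectors (median -0.43), all 5 sensors (median -0.24) and 4 of 5 GTPases (median -0.25). Gbp3 was the exception, at 13.5 ± 0.446 against 14.2 ± 1.07 CPM. Herc6, Stat2, Eif2ak2 and Ifit2 were within 0.10 of 0 on the log2 scale. Rnf213, a large ubiquitin ligase, also fell, from 951 ± 53.7 to 736 ± 40.3 CPM (log2 -0.37 ± 0.05). Of 103 further interferon-stimulated genes tested, 86 had negative estimates. Isg15, Irf9 and Usp18 were at log2 -0.55 ± 0.18, -0.18 ± 0.09 and -0.18 ± 0.14, and Ifit1 was at -0.50 ± 0.12.

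**Figure D4:**
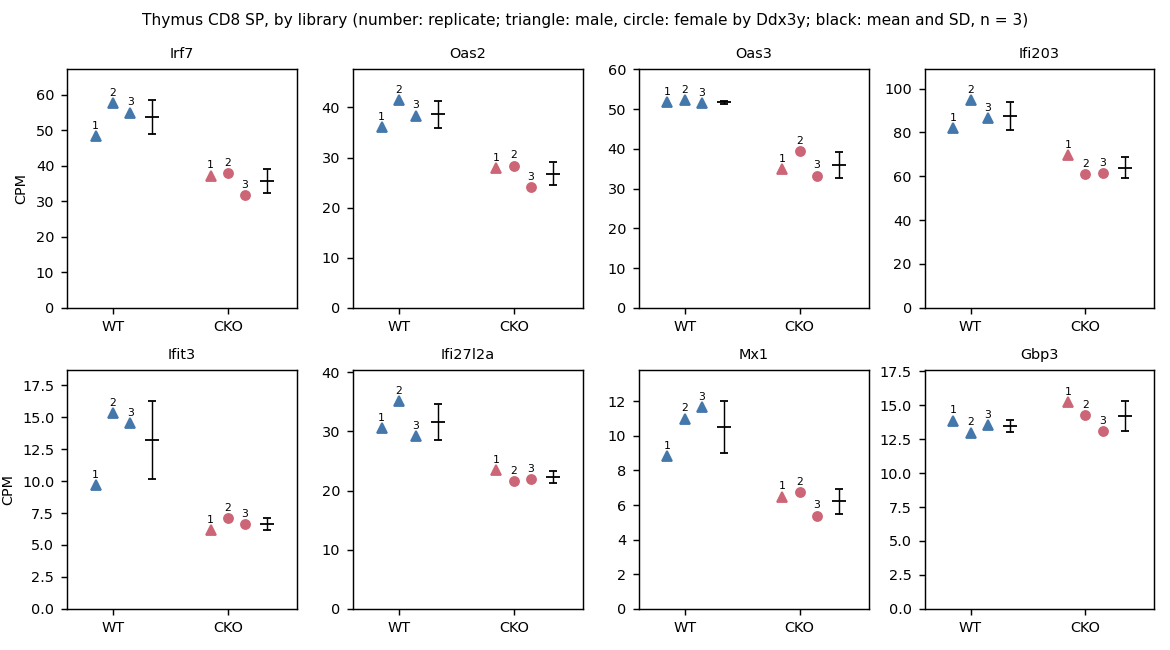
CPM in thymus CD8 SP for the 4 called genes (top row) and Ifit3, Ifi27l2a, Mx1 and Gbp3 (bottom row), in each library (triangle, male; circle, female; number, replicate), with the mean and SD (black, n = 3). For 7 of the 8 genes all CKO points lie below all WT points, the male CKO 1 included, and for Gbp3 the groups overlap.

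The calls in thymus CD8 SP rested on few libraries. Without WT 2, WT 3 or CKO 3 none of the 43 genes passed, without CKO 2 only Oas3 did, without CKO 1 3 did, and without WT 1 8 did. DESeq2 called 17 lower, and limma voom with quality weights called 5. Over all 14911 genes, DESeq2 called 125 lower and 85 higher and limma voom 18 and 6, against 12 and 5 by edgeR. With a library left out, lower calls over all genes ran from 0 (without WT 2 or WT 3) to 40 (without WT 1). Sex was uneven, since the WT mice were male and CKO 2 and CKO 3 female. A fit with sex as a term therefore takes the genotype difference from CKO 1 alone, as a fit of the male libraries (WT 1 to 3 against CKO 1) does, and the pair amounts to 1 check with a single CKO library. None passed in it, with a median of -0.30 and 39 of 43 estimates negative. CKO 1, the male, lay below all 3 WT males in 34 of 42 genes, CKO 2 in 34 and CKO 3 in 36. The share of all genes below every WT library was not counted for single CKO libraries. With sex as a term the estimates of Irf9 and Stat2 were 0.00 and 0.10, against -0.18 and -0.08 without it. Estimates for markers of mature thymocytes also leaned down in CKO, with 19 of 20 negative (median -0.20). Of that list, Ms4a4b, Ms4a6b, Ly6c1 and Ly6c2 are also among the further interferon-stimulated genes, so the 2 lists are not separate. No marker of that list passed, and the summed levels were 4582 to 4804 CPM in WT and 4533 to 4598 in CKO. Double-positive markers summed to 5051 to 5336 CPM in WT and 5340 to 5776 in CKO. Effector T cell markers summed to 442 to 456 CPM in WT and 392 to 424 in CKO. The part of maturity and of these other markers in the result was not tested.

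In thymus DP cells, the first stage at which Prmt5 was reduced, no response gene passed, and 0.0258% of all 11634 genes tested did (0.0172% higher and 0.00860% lower). Of 40 genes tested, 2 had an unadjusted p under 0.05 by edgeR (7.07% of all genes), and DESeq2 and limma voom also called none. The median log2 change was -0.01, with 21 estimates negative and 19 positive. The 4 genes of smallest p were Igtp (80.2, 70.1 and 73.96 CPM in WT, 89.8, 93.7 and 80.9 in CKO), Slfn5 (19.7, 16.1 and 15.9 against 22.6, 22.1 and 19.4 CPM), Stat2 (log2 -0.16 ± 0.08) and Isg15 (-0.42 ± 0.21), all at an adjusted p of 0.66 or more. Usp18 was at -0.14 ± 0.18. Levels were low, with Oas2 at 3.00 ± 0.701 CPM in WT and 2.15 ± 0.820 in CKO, Ifit1 at 1.67 ± 0.284 against 1.31 ± 0.336, and Irf7 at 12.8 ± 1.21 against 14.1 ± 1.78. One gene each had CKO libraries all below WT (Isg15, 4.55, 4.46 and 6.38 against 4.38, 3.40 and 3.76 CPM) or all above (Igtp), of 38 expressed genes, against 5.90% and 6.31% of all genes tested.

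In the libraries labelled thymus CD4 SP no response gene passed either, and neither did any of the 11839 genes tested (0.00%). At an unadjusted p under 0.05 there were 3 of 41 (2.58% of all genes). DESeq2 and limma voom called none. The CKO libraries were all above WT for Gbp2, Isg20 and Lgals3bp, 3 of 41 genes (5.09% of all genes), and all below for 0 (4.95%). Isg20, a nuclease that degrades RNA, was at 13.7, 15.5 and 14.8 CPM in WT and 22.1, 31.2 and 19.7 CPM in CKO, and Gbp2 at 33.1, 32.4 and 29.1 against 58.8, 60.98 and 39.96 CPM, both at an adjusted p of 0.958. Log2 changes were 0.68 ± 0.26 for Lgals3bp, 0.71 ± 0.33 for Ifi27l2a, 0.64 ± 0.31 for Isg15, 0.49 ± 0.28 for Usp18, 0.48 ± 0.43 for Ifit1, 0.30 ± 0.36 for Irf9 and 0.02 ± 0.28 for Stat2. The estimates leaned upward, with 38 of 41 positive and a median of 0.44, but the CKO libraries disagreed. Irf7 was at 54.7, 84.4 and 56.3 CPM in WT 15, 18 and 24 and at 74.4, 150 and 72.1 CPM in CKO 14, 17 and 23. Oas2 was at 34.1, 54.1 and 40.2 CPM in WT and at 22.8, 114 and 46.2 CPM in CKO. Samd9l was at 89.3, 74.0 and 56.3 CPM in WT and at 8.88, 144 and 83.6 CPM in CKO. CKO 17 was the highest of the 6 libraries for 40 of 41 genes and CKO 14 the lowest for 27. The matching shares of all genes were not counted. Without CKO 17 the median was -0.25 with 26 estimates negative, and without CKO 14 it was 0.67 with none negative. Double-positive markers summed to 6195 to 9442 CPM over the WT libraries, but to 12730 in CKO 14, to 2308 in CKO 17 and to 6489 in CKO 23, and mature thymocyte markers summed to 10463, 12130 and 8787 CPM against 7605 to 8206. CKO 17 and WT 18 were the males, and 38 of 41 genes were above the WT mean in WT 18. The part of these differences in the estimates was not tested. The CKO effect in CD4 SP minus that in DP was called for none of 41 genes (0.00% of 12216 genes) by edgeR, DESeq2 or limma voom, with 2 at an unadjusted p under 0.05 (2.15% of all genes). The smallest p values there were those of Isg15 (1.03 ± 0.38), Isg20 (0.64 ± 0.29), Oas1a (1.11 ± 0.53) and Lgals3bp (0.59 ± 0.29). In simulated counts for these libraries the test recovered 0% of genes changed by a log2 of 1 in thymus CD4 SP, against 85% in thymus DP, so a difference of that size was not detectable at this spread.

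The set was also compared between stages in WT mice. Between WT thymus DP and WT thymus CD4 SP, 37 of 41 genes were higher in CD4 SP and none was lower, against 21.7% of all 11826 genes higher and 18.1% lower (39.8% in either direction). The same 37 had an unadjusted p under 0.05, as had 48.0% of all genes. The median log2 difference was 1.38, against 0.01 for all genes. The genes with the largest differences were Oasl2 (4.53 ± 0.27), Ifi44 (4.05 ± 0.48), Oas2 (3.87 ± 0.22), Ifi27l2a (3.62 ± 0.27) and Ifit1 (3.16 ± 0.21). Oas2, for example, was at 2.19, 3.46 and 3.35 CPM in DP and 34.1, 54.1 and 40.2 CPM in CD4 SP of WT 15, 18 and 24, each scaled within its population. Ifi27l2a was at 5.004, 3.53 and 8.70 CPM in DP and 61.2, 91.7 and 60.1 CPM in CD4 SP. All 5 OAS genes, all 5 sensors, 10 of 11 effectors and all 4 GTPases tested were higher. Ifit2 (-0.29 ± 0.13), Herc6 (0.30 ± 0.15), Usp18 (0.28 ± 0.16) and Stat2 (-0.07 ± 0.10) did not pass. The part of the Cd8a transcripts in these CD4 SP libraries was not tested.

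**Figure D5:**
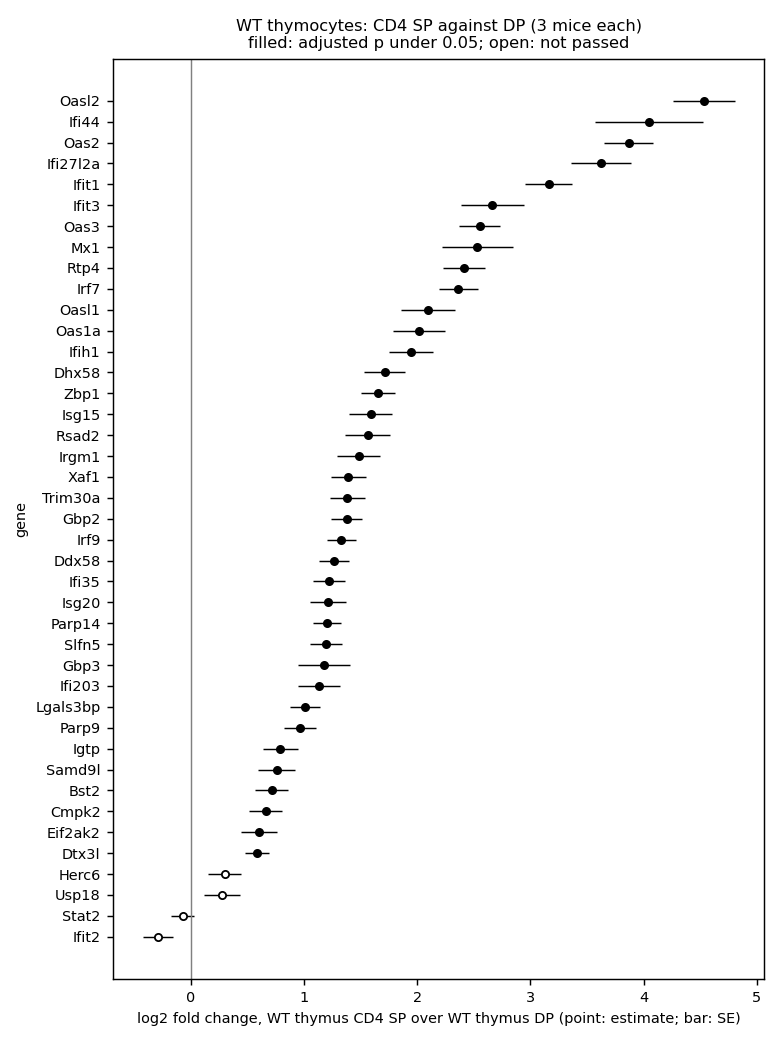
Log2 fold change of WT thymus CD4 SP over WT thymus DP for each of the 41 genes tested (points), with the SE (bars). Filled points passed at an adjusted p under 0.05. They lie between 0.59 for Dtx3l and 4.53 for Oasl2, and the 4 open points lie between -0.29 and 0.30.

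Between WT spleen CD8 and CD4 cells the set was divided, with 7 of 43 genes higher in CD8 and 11 lower, against 15.3% and 16.5% of all 14131 genes (31.9% in either direction), 20 at an unadjusted p under 0.05 (41.3%), and a median of -0.04 against 0.01. Higher in CD8 were Oas3 (0.70 ± 0.10), Mx1 (0.70 ± 0.17), Lgals3bp, Bst2, Gbp2, Samd9l and Ifi47. Lower were Ifi44 (-1.32 ± 0.20), Slfn5 (-1.27 ± 0.06), Ifih1 (-0.78 ± 0.07), Ifit2, Oas2, Ifi27l2a, Isg20, Oas1a, Stat2, Parp14 and Zbp1. Slfn5 was at 229, 246 and 226 CPM in CD4 cells and 89.6, 97.4 and 98.5 CPM in CD8 cells of WT 67, 70 and 71. Irgm1, Irf9, Usp18 and Slfn8, which changed with genotype in both, did not pass between the WT populations. Per kilobase of merged exons, the most abundant of the 43 genes in both WT spleen populations was Ifi27l2a, at 211 ± 23.3 CPM per kb in CD4 and 133 ± 10.4 in CD8. Trim30a followed in CD4 at 48.8 ± 2.44, within the spread of Bst2 at 46.5 ± 2.96, and Bst2 followed in CD8 at 60.3 ± 4.32, within the spread of Samd9l at 56.9 ± 2.89.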

How the data were processed

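RNA from sorted T cells was sequenced in 30 libraries, as poly(A) RNA prepared with a directional kit, per the labels' protocols. The authors deposited 3 tables of raw counts per gene (thymus DP and CD4 SP, thymus CD8 SP, and spleen). HISAT2, HTSeq and GRCm38 are named in the submitters' processing notes. Neither the annotation nor whether counting used strand is given in the sources used here, so reads of overlapping or antisense genes and of close paralogs may be misassigned. Library totals were 24729146 to 27137018 counts (spleen CD4), 25426449 to 27192847 (spleen CD8), 28721963 to 35353441 (thymus CD8 SP), 13032992 to 18576401 (thymus DP) and 11865646 to 22881226 (thymus CD4 SP). In the shallowest libraries 10 counts equal 0.404, 0.393, 0.348, 0.767 and 0.843 CPM, in that order.

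Counts were tested with the quasi-likelihood F-test of edgeR 4.0.16 in R 4.3.3, with TMM scaling, the low-count filter filterByExpr (minimum count 10, minimum total 15) and Benjamini-Hochberg adjustment over all genes tested, at 0.05. Each genotype comparison used its own 6 libraries, and differences between populations used the 12 libraries of a pair. Log2 changes carry a standard error derived from the F statistic. CPM values are TMM-scaled within a population. Settings varied were the tool (limma 3.58.1 voom with quality weights, or DESeq2 1.42.0), the scaling (DESeq2 size factors), no filter, 5 CPM in 3 libraries, a joint fit of both populations of a table, leaving out each library, a replicate block, sex as a term and, added after the data were seen, male thymus CD8 SP libraries only. No pair of replicates agreed within sampling noise. The labels give CD4 and CD8 spleen libraries shared numbers without calling them mice. All 6 same-numbered pairs deviated together (correlations of 0.104 to 0.452) and were taken as pairs. The pairing entered only through the replicate block, and the main tests between the spleen populations left it out. Thymus DP and CD4 SP libraries also share numbers. CKO 14 and CKO 23 correlated at 0.0759 and -0.185, against 0.137 to 0.265 in the other 4, all 3 WT pairs among them. The main thymus tests, the WT comparison included, therefore left this pairing out, and it entered only as a replicate block. The test was checked on simulated counts with 200 genes changed by a log2 of 1. There 11.8% of its calls were false in thymus CD8 SP, 8.33% in spleen CD8, 6.67% in spleen CD4 and 5.56% in thymus DP. These shares lie above the 0.05 at which calls were made. The changed genes recovered were 82.5%, 71.5%, 70% and 85%, in that order. The genes and lists were chosen with earlier results of these data known. By the naming rule, called genes of the set are named (at least the 4 of smallest p per comparison), Irf7, Irf9, Stat2, Usp18, Isg15 and Ifit1 in each genotype comparison, and up to 6 called genes of each other pathway list. Those lists are given here for genotype comparisons with calls, and other genes were added for their role. A gene that these lists count is not reported here by itself. Promoters are those of up to 6 genes called in the most comparisons that hold the motif, and of the called gene of smallest p without it. Gene positions are from GENCODE M21 on GRCm38.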

Additional observations from a re-analysis of the deposited data

Results flagged for a closer look

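The change of Gbp3 with genotype differed between spleen CD8 and CD4 cells by 0.87 on the log2 scale, by the test of the difference over the 12 spleen libraries. That test left out the pairing by mouse. With the mouse as a replicate block, Eif2ak2, Oas1a and Mx1 were also called.

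Other genes had every CKO library on one side of WT in one population and on the other side in another. These differences between populations were not tested, and the populations compared lie in separately deposited tables. As differences of log2 changes, Igtp was at -1.31 for spleen CD8 minus thymus DP. Its mean level was 1.42 (WT) and 0.675 (CKO) CPM per kb in spleen CD8, against 37.0 and 43.6 in thymus DP. Whether this symbol was counted alike in both tables was not tested. Thymus CD8 SP minus thymus CD4 SP gave -0.97 for Isg20, -0.91 for Lgals3bp and -1.01 for Gbp2. Spleen CD4 minus thymus CD8 SP gave 1.70 for Ifi44 and 1.49 for Oas2. Spleen CD8 minus thymus CD8 SP gave 1.39 for Oas2 and 1.57 for Mx1.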

How the results depend on the processing

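In thymus CD8 SP the 4 lower genes became 17 by DESeq2, 24 with no filter, 0 with sex as a term or in male libraries alone (both rest on CKO 1) and 0 to 8 when a library was left out, while the median ranged from -0.35 to -0.25 over all settings. Over all genes 12 were lower in the main fit, 125 by DESeq2 and 270 with no filter. The replicate number as a replicate block gave 3, Irf7, Oas3 and Ifit3, without Oas2 and Ifi203. Same-numbered libraries there correlated at 0.0529 to 0.142, each best with its own number, a hint from the data only. In spleen CD4 no filter gave 7 higher and 10 lower, the joint fit of 12 libraries gave 3 lower, and leaving out a library gave 1 to 5 higher and 3 to 8 lower. Over all genes in spleen CD4, the main fit gave 1219 higher and 805 lower. The joint fit gave 1239 and 753, and the fit without WT 71 gave 706 and 379. In spleen CD8 DESeq2 gave 5 lower, no filter gave 9 higher and 7 lower, and leaving out a library gave 2 to 7 higher and 2 to 5 lower. For the spleen difference the replicate block gave 4 higher, against 0 to 1 when a library was left out. Matching counts over all genes in the varied settings are not reported here for spleen CD8, the spleen difference or the WT comparisons. The replicate block gave 8 higher and 12 lower in the WT spleen comparison and 37 higher in the WT thymus comparison. It gave no call in the thymus difference, whose median was 0.17 with it. Not all same-numbered thymus libraries deviated together. The median of thymus CD4 SP ran from -0.25 to 0.67 when a library was left out. The cause of these shifts was not tested.

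None of the estimates that changed sign had been called. In thymus CD8 SP, Irf9, Stat2, Irf1 and Ifng became 0.00058, 0.096, 0.12 and 0.10 with sex as a term, and 0.00026, 0.096, 0.12 and 0.10 in male libraries alone, and Ifng was 0.0099 by limma voom. When each library was left out in turn, Ifng there ran from -0.51 to 0.33. Thymus DP ran from -0.13 to 0.075 for Irf9 and -0.31 to 0.033 for Usp18. Thymus CD4 SP ran from -0.12 to 0.57 for Irf9, -0.31 to 0.20 for Stat2, -0.14 to 0.76 for Ifit1 and -0.10 to 0.18 for Irf1, with CKO 17 left out at each lower end. Spleen CD4 ran from -0.062 (without CKO 72) to 0.31 for Irf7 and -0.28 to 0.078 for Isg15. Spleen CD8 ran from -0.19 to 0.14 for Irf7, -0.059 to 0.11 for Stat2, -0.21 to 0.37 for Isg15 and -0.54 to 0.038 for Ifit1, with CKO 72 left out at each lower end. Levels of a few CPM, as in thymus DP, rest on few counts.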
